A study of Homo sapiens with 12 samples.

Results

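The genes described here are 32 genes of sterol and fatty acid synthesis and their control, found by gene symbol among the 58735 genes of the count table. They comprise 18 genes of the sterol branch, 9 of the fatty acid branch and 5 genes of control and transport. The sterol branch holds the mevalonate enzymes ACAT2, HMGCS1, MVK, PMVK, MVD, IDI1 and FDPS, followed by the squalene-to-cholesterol enzymes FDFT1, SQLE, LSS, CYP51A1, TM7SF2, MSMO1, NSDHL, HSD17B7, EBP, SC5D and DHCR7. The fatty acid branch holds ACLY, ACSS2, ACACA, FASN, SCD, ELOVL6, FADS1, FADS2 and ACSL3, and the control and transport genes are SREBF1, SREBF2, SCAP, INSIG1 and STARD4. All 32 passed the filter on low counts, with 16646 genes tested in all.

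C4.2B, a castration-resistant prostate cancer line derived from LNCaP, was analyzed by polyA RNA-seq in 4 arms of 3 libraries each, labelled A to C. DMSO libraries came from vehicle-treated cells, AKTi libraries from cells given the AKT inhibitor ipatasertib at 0.25 μM, EZH2i libraries from cells given the EZH2 inhibitor tazemetostat at 1 μM, and combination libraries from cells given both agents at these doses. EZH2i and combination cells had already received tazemetostat for 6 days, AKTi and DMSO cells had received DMSO over that time, and RNA of every arm was taken 24 hours after the last change of treatment, in medium with 10% charcoal-stripped FBS. Each plate held cells of the same line and nothing in the labels gives separate experiments, so p-values measure the spread between these samples, which may be technical.

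Sterols and fatty acids are built from acetyl-CoA in the cytosol and the endoplasmic reticulum, and most genes of both pathways are targets of the SREBP transcription factors. SREBF2 encodes the form best known for sterol genes and SREBF1 the forms best known for fatty acid genes. SCAP escorts the precursors to the Golgi for cleavage when sterols are low, and INSIG1, itself an SREBP target, holds them in the endoplasmic reticulum when sterols are high. Prostate cancers are known for raised lipid synthesis, which androgen and AKT signaling both promote.

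Library totals ranged from 14133755 to 22276417 counts. Libraries of an arm differed by more than counting error, with a chi-square per gene between 2.63 and 8.09 for every pair. The 9 luminal prostate markers were at 50.0 CPM or more (CPM is the count relative to the TMM-scaled library size) in every library, so the defining markers of a luminal prostate line were present. In the combination, 8 of them were called higher than in DMSO (38.0% of all tested genes) and HOXB13 lower (35.2%). Markers of fibroblast, endothelial, blood, fat and liver cells summed to 4.79 to 7.73 CPM over 10 genes in DMSO, 4.69 to 6.39 in AKTi, 17.3 to 20.001 in EZH2i and 12.4 to 17.3 in the combination. COL1A1 made up most of these sums, and ADIPOQ and COL1A2 were each at 0 in 11 of 12 libraries. PLIN1, the other fat cell marker, was at 0 to 0.295 CPM in DMSO and 1.15 to 1.93 in the combination. Of the 10 markers 3 were tested. Of these, 2 were called higher in EZH2i (32.6% of all tested genes) and 2 in the combination (38.0%), and none lower (31.5% and 35.2%). The share of counts on mitochondrial genes was 2.37% to 3.36% in DMSO, 3.93% to 4.29% in AKTi, 4.35% to 5.31% in EZH2i and 5.14% to 5.64% in the combination. The part of these marker sums and shares in the results was not tested.

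As a whole, the sterol and fatty acid synthesis genes were lowest in the combination. They took 0.783% to 0.851% of all counts in DMSO, 0.734% to 0.769% in AKTi, 0.6% to 0.62% in EZH2i and 0.375% to 0.388% in the combination, with no overlap between arms. The 3 combination libraries were below all 9 other libraries for 23 of the 32 genes, and above all of them for TM7SF2 alone. For the other 8 genes, PMVK, MVD, CYP51A1, HSD17B7, SC5D, ACSS2, ACACA and SCAP, the combination lay within the range of the other libraries or overlapped with it. How many of all tested genes were below or above in this way was not counted. In these bulk libraries, fewer cells that express a gene and less RNA per cell cannot be told apart.

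Levels were compared between genes per kilobase of gene length, in CPM per kb. In DMSO, 4 of the 9 fatty acid genes led the list, with SCD at 226, FASN at 182, ACLY at 126 and FADS2 at 104 CPM per kb. FDFT1, which makes squalene, was the highest sterol gene at 90.0 CPM per kb. STARD4, a sterol carrier protein, was lowest at 4.33 CPM per kb, next to ELOVL6 at 4.57, MVD at 5.12 and MVK at 5.13.

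**Figure D1:**
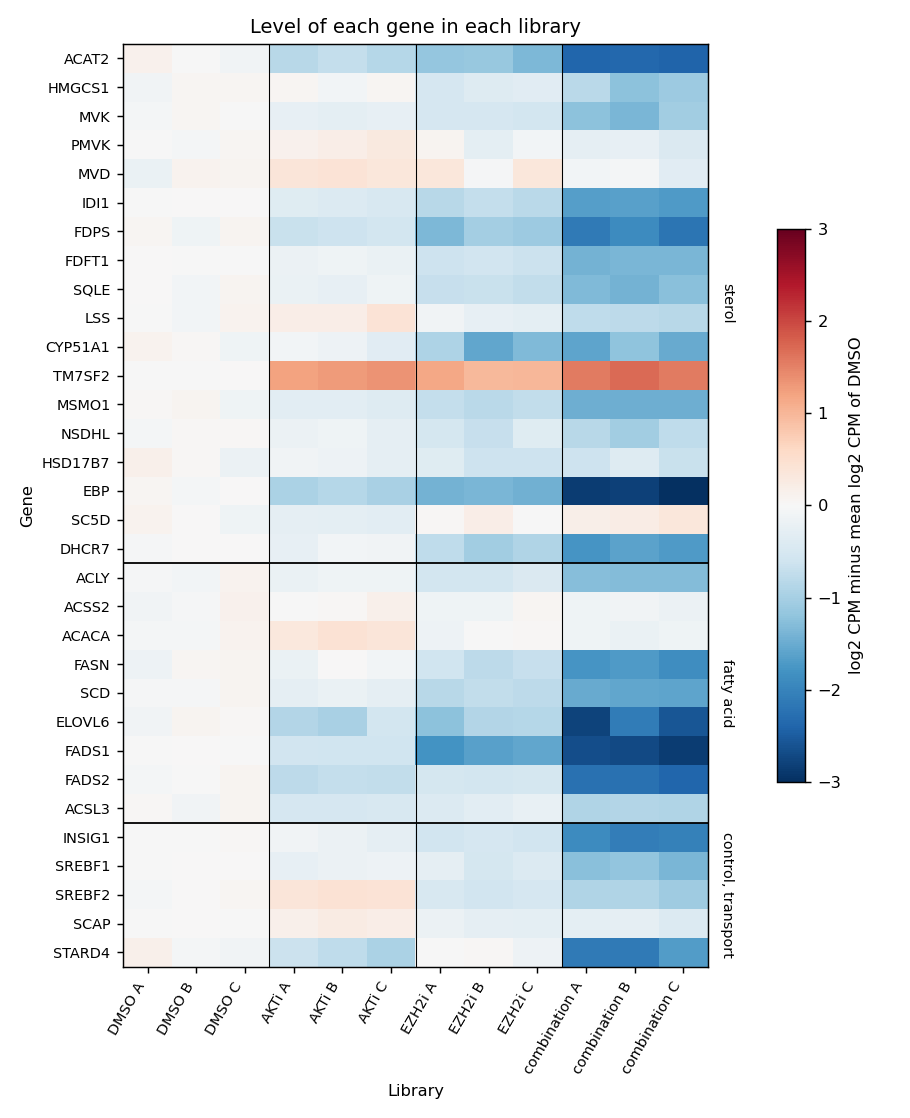
Level of each of the 32 genes (rows) in each of the 12 libraries (columns), as log2 CPM minus the mean log2 CPM of the 3 DMSO libraries, with blue for lower and red for higher and lines between arms and between branches. Most rows turn darker blue from AKTi to EZH2i to the combination, while the TM7SF2 row is red in all 9 treated libraries.

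The promoters of 5 genes that the results turn on are shown first, as the 250 bases before the RefSeq start of transcription (GRCh38.p14, plus strand in each case, 5′ to 3′). SREBF2, INSIG1 and EBP were among the genes lower in the combination, and TM7SF2 and SC5D are the pair that were higher. Capitals mark matches on either strand to a core of the sterol regulatory element (TCACNCCAC), the CCAAT box (CCAAT, which reads ATTGG on the other strand) and the E-box CACGTG. INSIG1 is shown up to an annotated first exon that begins inside its window, and its E-box lies past that point. The last 27 bases of the TM7SF2 window also lie in an annotated exon. By the gene positions given with the counts, EBP and SC5D start before their windows and SREBF2 starts inside its window. SC5D has 2 promoters in RefSeq, and the first is shown.
SREBF2, chr22:41832855-41833104: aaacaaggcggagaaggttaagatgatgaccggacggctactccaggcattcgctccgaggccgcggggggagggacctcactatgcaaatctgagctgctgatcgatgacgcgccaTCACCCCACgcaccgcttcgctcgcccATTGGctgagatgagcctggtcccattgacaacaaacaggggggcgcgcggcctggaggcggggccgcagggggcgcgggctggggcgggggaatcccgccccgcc
INSIG1, chr7:155297628-155297775: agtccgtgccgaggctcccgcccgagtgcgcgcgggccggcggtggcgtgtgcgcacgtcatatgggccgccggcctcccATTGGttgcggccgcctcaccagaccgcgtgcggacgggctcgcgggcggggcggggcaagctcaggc
EBP, chrX:48521558-48521807: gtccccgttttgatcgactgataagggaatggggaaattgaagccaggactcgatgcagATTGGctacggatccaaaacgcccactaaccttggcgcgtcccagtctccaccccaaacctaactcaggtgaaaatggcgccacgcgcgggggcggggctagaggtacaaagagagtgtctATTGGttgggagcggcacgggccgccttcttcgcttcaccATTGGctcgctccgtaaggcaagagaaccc
TM7SF2, chr11:65111622-65111871: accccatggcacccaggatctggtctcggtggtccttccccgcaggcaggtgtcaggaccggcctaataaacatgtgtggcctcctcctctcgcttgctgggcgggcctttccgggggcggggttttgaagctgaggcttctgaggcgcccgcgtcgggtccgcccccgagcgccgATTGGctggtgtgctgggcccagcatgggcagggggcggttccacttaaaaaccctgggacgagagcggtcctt
SC5D, chr11:121292521-121292770: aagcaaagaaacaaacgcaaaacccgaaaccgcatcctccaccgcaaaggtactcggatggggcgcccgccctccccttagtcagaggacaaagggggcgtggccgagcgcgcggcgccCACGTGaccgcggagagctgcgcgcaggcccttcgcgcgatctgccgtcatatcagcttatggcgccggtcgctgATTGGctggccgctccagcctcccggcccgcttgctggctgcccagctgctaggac

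Of the 32 genes, 28 had a promoter in the RefSeq table, and ACAT2, FASN, FDFT1 and SQLE did not. A CCAAT box was present in 21 of the 28 (75.0%), against 41.2% of 10939 tested genes and 37.0% of all 27305 genes with a promoter. A gene was counted if any of its promoters held the letters. It was present in 13 of 15 sterol genes, 5 of 8 fatty acid genes and 3 of 5 control and transport genes. TM7SF2 and SC5D held it as well, so the letters did not separate them from INSIG1, SREBF2 and EBP, which held 3 copies in the case of EBP. The sterol regulatory element core was found in SREBF2 alone (3.57% of the 28), between 133 and 125 bases before the start. It was present in 1.09% of all 27305 genes and 1.12% of tested genes, and other spellings of the element were not searched. The E-box CACGTG was found in INSIG1, SCAP and SC5D (10.7% of the 28, against 7.73% of all 27305 genes and 11.4% of tested genes). These matches describe letters in a window and are not binding sites measured here.

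The combination was compared with DMSO to ask how the pathway responded when both agents were present. Of the 32 genes, 28 fell, where 35.2% of all tested genes fell, and 2 rose, where 38.0% of all tested genes rose. MVD and ACSS2 did not pass the test. The median log2 fold change of the 32 genes was -1.31, beside 0.06 for all tested genes. All combination libraries lay below all DMSO libraries for 29 genes and above them for 2, and MVD alone overlapped. Such separation was not counted over all tested genes, in this or in the other comparisons. Log2 fold changes and adjusted p-values are from edgeR's quasi-likelihood test with Benjamini-Hochberg adjustment over all genes tested, and each is given with its standard error (SE).

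EBP, the isomerase that moves the double bond of the sterol ring, had the lowest fold change of the 32 genes. It was at 147, 134 and 141 CPM in DMSO libraries A to C, 72.7, 77.3 and 71.6 in AKTi, 52.8, 54.3 and 51.5 in EZH2i and 19.5, 20.1 and 15.6 in the combination. The 4 arms did not overlap, and the log2 fold change of the combination was -2.93 (SE 0.0767, adjusted p = 2.42e-28). FADS1, a desaturase of polyunsaturated fatty acids, was at 270.4, 272 and 271 CPM in DMSO and 42.6, 41.6 and 37.6 in the combination, with AKTi between 178 and 182 and EZH2i between 78.4 and 92.7. Its arms also stood apart in that order, and it fell by 2.74 on the log2 scale (SE 0.0640, adjusted p = 7.81e-30).

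ELOVL6, which elongates palmitate, was low throughout. It was at 30.8, 35.4 and 33.8 CPM in DMSO, 17.99, 16.9 and 22.6 in AKTi, 14.2, 18.2 and 18.4 in EZH2i and 4.86, 7.77 and 5.61 in the combination. AKTi and EZH2i libraries overlapped, the combination was below both, and the fold change was -2.46 (SE 0.138, adjusted p = 2.61e-18). FADS2, the partner desaturase of FADS1, was at 1093, 1139 and 1208 CPM in DMSO, 666, 703 and 690.3 in AKTi, 794, 785 and 799 in EZH2i and 244, 242 and 219.7 in the combination. For this gene AKTi was below EZH2i, unlike FADS1, and the combination was lowest, with a log2 fold change against DMSO of -2.28 (SE 0.0556, adjusted p = 2.5e-29). FADS1 and FADS2 overlap on opposite strands of chromosome 11, and the strand setting of the counting is not given, so reads between them may not be separable.

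ACAT2, the thiolase that starts the mevalonate pathway, was at 86.5, 78.2 and 73.9 CPM in DMSO, 44.9, 48.3 and 43.8 in AKTi, 35.3, 36.3 and 31.1 in EZH2i and 15.2, 15.5 and 15.01 in the combination. The arms stepped down without overlap, and the log2 fold change was -2.38 (SE 0.0837, adjusted p = 2.04e-24). ACAT2 overlaps TCP1, a chaperonin gene on the other strand with 994% of its counts, and TCP1 itself fell by 1.99 on the log2 scale (SE 0.0523, adjusted p = 2.89e-28), so without a known strand setting the level of ACAT2 is uncertain.

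In the mevalonate part, 6 of 7 genes fell (35.2% of all tested genes) and none rose (38.0%), with a median log2 fold change of -1.21. FDPS, which makes farnesyl diphosphate, went from 91.98 ± 6.54 CPM (SD, n = 3) in DMSO to 21.97 ± 2.46 in the combination, and IDI1, the isopentenyl diphosphate isomerase, from 95.7 ± 1.03 to 30.5 ± 0.754. HMGCS1, the synthase before the rate-limiting step, went from 88.5 ± 5.52 to 43.1 ± 6.59 CPM, and MVK, mevalonate kinase, from 33.2 ± 1.53 to 14.4 ± 1.68. The groups did not overlap for any of these, and their log2 fold changes lay between -2.07 for FDPS and -1.03 for HMGCS1. MVK overlaps MMAB on the other strand, which has 336% of its counts and also fell, by 1.09.

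PMVK and MVD, the phosphomevalonate kinase and the decarboxylase after it, had the smallest fold changes of the mevalonate part. PMVK was at 63.3, 60.7 and 66.5 CPM in DMSO and 52.4, 53.8 and 46.7 in the combination, a log2 fold change of -0.32 (SE 0.0783, adjusted p = 0.000471). Scaled by library size only, without the TMM factors that correct for the makeup of each library, it was -0.12 (adjusted p = 0.158). MVD was at 21.1, 25.7 and 25.7 CPM in DMSO and 22.9, 23.02 and 18.9 in the combination. These overlapped, and the log2 fold change was -0.16 (SE 0.105, adjusted p = 0.166). Without DMSO library A it was -0.26 (adjusted p = 0.0442), and by library size only it was 0.03.

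From squalene to cholesterol, 9 of 11 genes fell (35.2% of all tested genes) and 2 rose (38.0%), and every gene passed the test. FDFT1 went from 468 ± 3.38 to 179 ± 2.97 CPM, SQLE, the rate-limiting epoxidase of this part, from 65.1 ± 3.96 to 25.9 ± 1.46, and LSS, which closes the ring to lanosterol, from 83.2 ± 5.20 to 47.9 ± 1.21 (SD, n = 3). DHCR7, which makes cholesterol in the last step, went from 195 ± 4.47 to 60.5 ± 3.64 CPM, and MSMO1, the sterol methyl oxidase, from 96.8 ± 7.77 to 35.00 ± 0.228. NSDHL and HSD17B7, partners of MSMO1 in removing methyl groups, had smaller log2 fold changes of -0.87 and -0.55, and a near-identical copy of HSD17B7, HSD17B7P2, held 7.44% of its counts. CYP51A1, the lanosterol demethylase, was at 28.3, 26.8 and 24.1 CPM in DMSO and 8.75, 11.4 and 9.28 in the combination, a log2 fold change of -1.43 (SE 0.128, adjusted p = 1.87e-12). All of these had combination libraries below all DMSO libraries.

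TM7SF2 and SC5D were the exceptions. TM7SF2, a sterol reductase that acts right after CYP51A1, was at 86.3, 86.9 and 88.7 CPM in DMSO, 202, 212 and 222 in AKTi, 197, 171 and 174 in EZH2i and 258, 284 and 255 in the combination. All treated libraries were above all DMSO libraries and the combination was above all others, a rise of 1.61 on the log2 scale (SE 0.0611, adjusted p = 2.21e-23). Its level per length went from 25.6 to 77.9 CPM per kb between DMSO and the combination. TM7SF2 overlaps VPS51 on the same strand, which has 69.3% of its counts and rose less, by 0.77 (SE 0.066, adjusted p = 4.51e-13). SC5D, the sterol desaturase of a late step, was at 101, 94.01 and 85.4 CPM in DMSO, 77.3, 76.5 and 74.4 in AKTi, 94.7, 108 and 92.4 in EZH2i and 106, 109 and 119 in the combination. Its combination libraries lay above the DMSO and AKTi libraries and overlapped with EZH2i, a rise of 0.25 against DMSO (SE 0.0668, adjusted p = 0.00101).

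Among fatty acid genes, 8 of 9 fell (35.2% of all tested genes) and none rose (38.0%). The median log2 fold change was -1.55, beside -1.27 for the sterol branch. FASN, the fatty acid synthase, was at 1524, 1780 and 1807 CPM in DMSO, 1469, 1704 and 1613 in AKTi, 1116, 988 and 1046 in EZH2i and 502, 524 and 469.5 in the combination. Its AKTi libraries overlapped with DMSO and its combination libraries lay below all others, with a log2 fold change of -1.77 (SE 0.0644, adjusted p = 5.61e-24). SCD, which makes monounsaturated fatty acids, went from 1214 ± 58.3 to 414 ± 11.01 CPM, ACLY, which makes acetyl-CoA from citrate, from 658 ± 44.3 to 269 ± 2.76, and ACSL3, which activates fatty acids, from 252 ± 15.2 to 136 ± 0.676 (SD, n = 3). Each of these 3 had no overlap between the combination and DMSO.

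ACACA and ACSS2 stood apart from the rest of the branch. ACACA, the carboxylase of the first committed step, was at 421, 419.6 and 466 CPM in DMSO and 399.7, 382 and 396 in the combination. The groups did not overlap, but the log2 fold change was only -0.15 (SE 0.0561, adjusted p = 0.0167), it turned to 0.05 (adjusted p = 0.449) by library size only and to 0.03 (adjusted p = 0.568) by upper quartile, and it was -0.08 (adjusted p = 0.185) with genes kept at 10 or more counts in every library, -0.11 (adjusted p = 0.0984) without DMSO library C and -0.13 (adjusted p = 0.0638) without combination library B. ACSS2, which makes acetyl-CoA from acetate, was at 45.05, 47.4 and 52.5 CPM in DMSO and 43.9, 44.5 and 42.5 in the combination. It overlaps GGT7 on the other strand, which has 62.3% of its counts and rose by 1.32. Its log2 fold change was -0.15 (SE 0.0758, adjusted p = 0.0764), and it passed the test when DMSO library A (-0.21, adjusted p = 0.0298), DMSO library B (-0.21, adjusted p = 0.0324), EZH2i library A (-0.21, adjusted p = 0.0116) or any 1 of the AKTi libraries A, B and C (-0.21, -0.19 and -0.19, adjusted p = 0.0158, 0.0322 and 0.0285) was left out, or when the fit held the DMSO and combination libraries alone (-0.17, adjusted p = 0.0449).

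**Figure D2:**
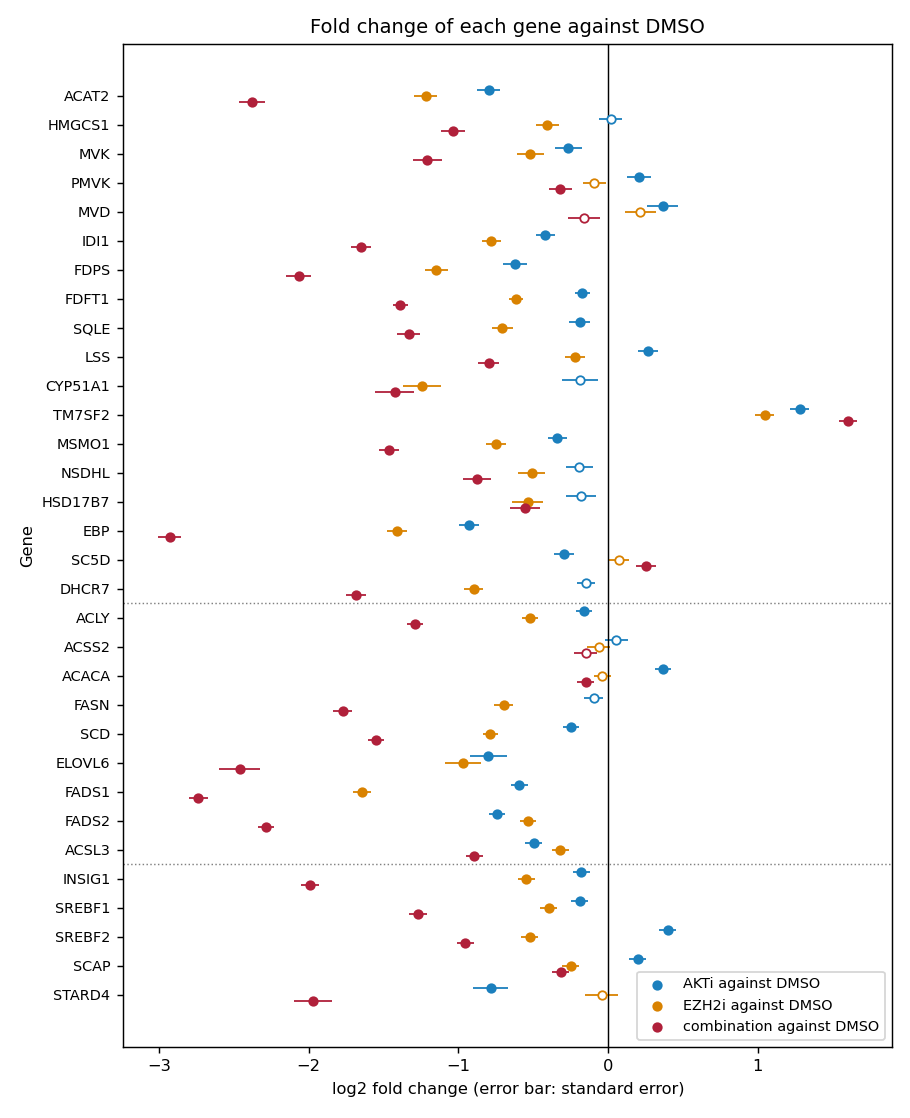
Log2 fold change against DMSO (x axis) of each of the 32 genes (y axis) for AKTi, EZH2i and the combination, with standard errors, filled points for an adjusted p under 0.05 and open points otherwise, and dotted lines between branches. The combination points lie farthest left for most genes, TM7SF2 lies to the right in all 3 comparisons, and ACSS2, ACACA and MVD stay close to 0 in the combination.

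All 5 control and transport genes fell in the combination, where 35.2% of all tested genes fell. SREBF1 was at 552, 562 and 569.7 CPM in DMSO, 476, 497 and 505 in AKTi, 467, 391 and 420.5 in EZH2i and 237, 245 and 216 in the combination. The arms stepped down without overlap, and the log2 fold change of the combination was -1.27 (SE 0.0588, adjusted p = 9.43e-21). SREBF2 was at 299, 314 and 325 CPM in DMSO, 398, 421 and 416 in AKTi, 224, 208 and 220.1 in EZH2i and 166, 168 and 149 in the combination. Here AKTi was the highest arm and the combination the lowest, with a log2 fold change against DMSO of -0.95 (SE 0.0556, adjusted p = 9.24e-18).

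INSIG1 was at 162, 164 and 168 CPM in DMSO, 153, 146 and 137 in AKTi, 110.5, 116 and 111 in EZH2i and 44.4, 39.2 and 40.2 in the combination. The drop to the combination was the largest step between arms, and INSIG1 fell by 1.99 on the log2 scale against DMSO (SE 0.0626, adjusted p = 6.68e-26). STARD4 was at 27.5, 23.6 and 22.8 CPM in DMSO, 15.7, 14.6 and 12.6 in AKTi, 24.5, 25.1 and 22.1 in EZH2i and 5.62, 5.64 and 7.66 in the combination. EZH2i overlapped with DMSO, AKTi was below both and the combination was lowest, a log2 fold change of -1.97 (SE 0.127, adjusted p = 1.91e-16). SCAP was at 110.3, 112 and 111 CPM in DMSO, 123, 132 and 127 in AKTi, 97.5, 91.8 and 90.7 in EZH2i and 90.4, 92.7 and 83.9 in the combination. Its fold change was the smallest of the 5, at -0.32 (SE 0.0582, adjusted p = 9.27e-06), and was -0.12 (adjusted p = 0.058) by library size only.

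**Figure D3:**
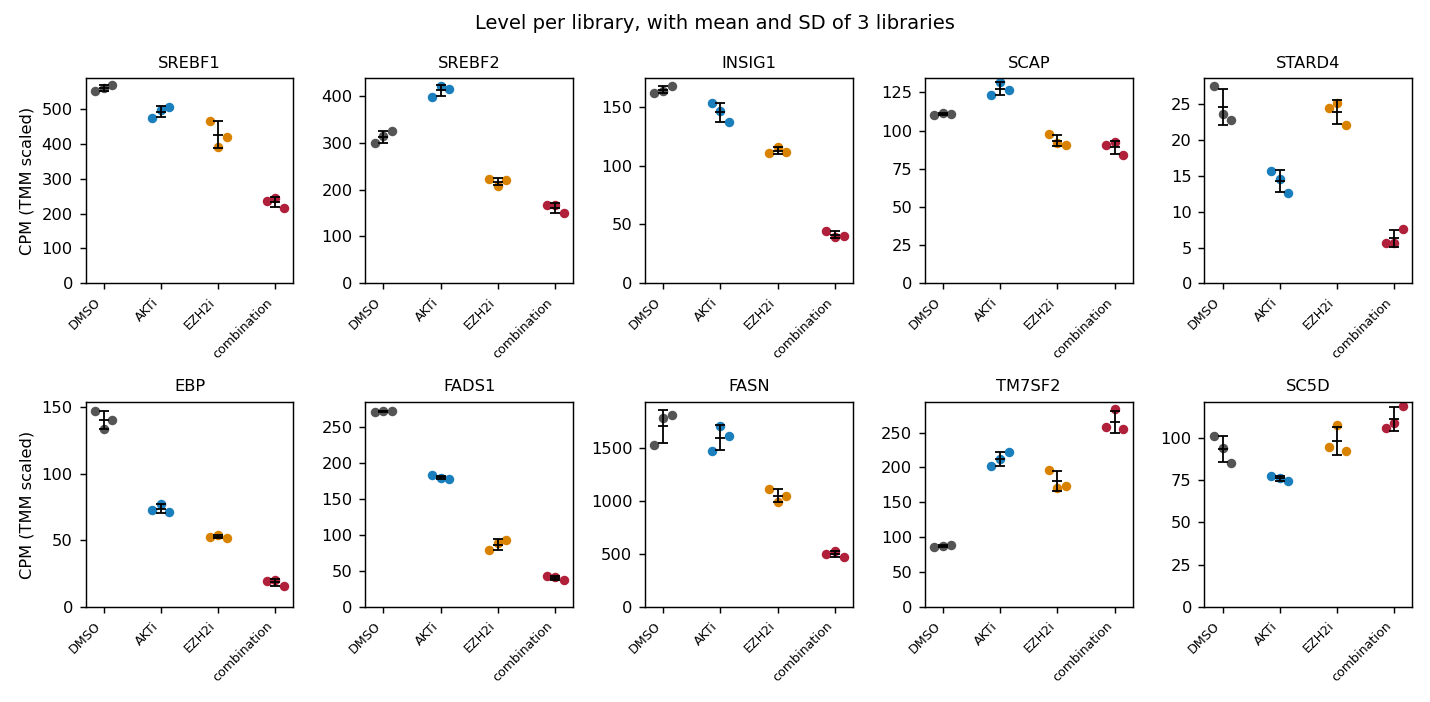
CPM (TMM scaled, y axis from 0) in each library of the 4 arms for 10 genes, with black bars for the mean and SD of 3 libraries. SREBF2 is highest in AKTi at 398.5 to 421 CPM, TM7SF2 rises to 255 to 284 CPM in the combination, and EBP, FADS1, FASN, INSIG1 and STARD4 are lowest in the combination.

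AKTi alone was compared with DMSO to ask what the AKT inhibitor does to these genes by itself. It lowered 18 of the 32 genes, against 21.9% of all tested genes, and raised 7, against 20.6%, while 7 did not pass the test. The median log2 fold change was -0.19, beside 0.01 for all tested genes, so most changes were small. The 3 lowest were EBP at -0.93 (SE 0.0679, adjusted p = 8.63e-14), ELOVL6 at -0.80 (SE 0.123, adjusted p = 1.45e-06) and ACAT2 at -0.80 (SE 0.0761, adjusted p = 6.82e-11). TCP1, which overlaps ACAT2, fell by 0.65 in AKTi (SE 0.0503, adjusted p = 3.3e-13), so the level of ACAT2 is uncertain here too. STARD4 fell by 0.78, SREBF1 by 0.19 and INSIG1 by 0.18 (SE 0.118, 0.0575 and 0.0579, adjusted p = 1.02e-06, 0.00753 and 0.0122). All AKTi libraries lay below all DMSO libraries for 20 genes and above them for 7, and HMGCS1, CYP51A1, HSD17B7, ACSS2 and FASN overlapped. How many of all tested genes separated in this way was not counted.

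The 7 genes that rose in AKTi came from all 3 groups, a number close to the 20.6% of all tested genes that rose. TM7SF2 rose by 1.28 (SE 0.0615, adjusted p = 8.78e-19), SREBF2 by 0.40 (SE 0.0544, adjusted p = 1.64e-07) and ACACA by 0.37 (SE 0.0561, adjusted p = 1.26e-06). ACACA was at 542, 588 and 556 CPM in AKTi, above all DMSO libraries. MVD, at 31.1, 32.1 and 30.4 CPM in AKTi, rose by 0.36 (SE 0.104, adjusted p = 0.00437), and LSS, at 95.3, 95.7 and 109.6 CPM against 81.9, 78.8 and 88.9 in DMSO, by 0.27 (SE 0.0672, adjusted p = 0.00137). PMVK, at 69.7, 72.3 and 78.3 CPM in AKTi, rose by 0.21 (SE 0.0776, adjusted p = 0.0293), and SCAP by 0.20 (SE 0.0578, adjusted p = 0.00488). The AKTi libraries of all 7 were above all DMSO libraries.

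Several of the smaller AKTi changes crossed the threshold when 1 library was left out, in some cases with little change in the estimate. MVD was 0.28 (adjusted p = 0.0512) without DMSO library A, LSS 0.17 (adjusted p = 0.0684) without AKTi library C, and SCAP 0.15 (adjusted p = 0.0832) without AKTi library B. PMVK lost its call without DMSO library A (0.20, adjusted p = 0.0695), DMSO library B (0.15, adjusted p = 0.189), AKTi library B (0.19, adjusted p = 0.0882) or AKTi library C (0.13, adjusted p = 0.25). Among lower genes, INSIG1 was -0.16 (adjusted p = 0.0563) without AKTi library C. SQLE, called at -0.19 (adjusted p = 0.0286), was -0.19 (adjusted p = 0.0655) without DMSO library A, -0.14 (adjusted p = 0.154) without DMSO library C, -0.18 (adjusted p = 0.0707) without AKTi library A and -0.19 (adjusted p = 0.0766) without AKTi library B. ACLY, called at -0.16 (adjusted p = 0.0143), was -0.10 (adjusted p = 0.122) without DMSO library C and -0.14 (adjusted p = 0.0644) without AKTi library A. DHCR7 gained a call without AKTi library B (-0.21, adjusted p = 0.022), AKTi library C (-0.18, adjusted p = 0.0474), EZH2i library A (-0.15, adjusted p = 0.0298) or EZH2i library B (-0.15, adjusted p = 0.0411). FASN gained one without DMSO library A (-0.17, adjusted p = 0.0348) and HSD17B7 without DMSO library C (-0.27, adjusted p = 0.0491).

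Scaling decided 6 of the 18 lower AKTi calls, and 12 were left both by library size only and by upper quartile. By library size only, INSIG1 was -0.12 (adjusted p = 0.097), SREBF1 -0.13 (adjusted p = 0.0602), MVK -0.21 (adjusted p = 0.0694), FDFT1 -0.11 (adjusted p = 0.0598), SQLE -0.13 (adjusted p = 0.148) and ACLY -0.10 (adjusted p = 0.127). The number of genes called higher was 7 under both scalings as well.

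EZH2i alone was compared with DMSO in the same way, for the EZH2 inhibitor by itself. It lowered 25 of the 32 genes, against 31.5% of all tested genes, and raised 1, against 32.6%. The median log2 fold change was -0.53, beside 0.03 for all tested genes, and was -0.58 in the sterol branch and -0.53 in the fatty acid branch. FADS1 was lowest at -1.65 (SE 0.0598, adjusted p = 2.57e-23), with 78.4, 88.1 and 92.7 CPM in EZH2i, followed by EBP at -1.41 (SE 0.0687, adjusted p = 1.39e-19) and CYP51A1 at -1.24 (SE 0.127, adjusted p = 7.17e-11). CYP51A1 was at 13.97, 8.99 and 10.6 CPM in EZH2i, which overlapped with the combination.

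The control genes mostly fell with EZH2i. SREBF2 fell by 0.52 (SE 0.0549, adjusted p = 1.57e-10), INSIG1 by 0.55 (SE 0.0581, adjusted p = 2.13e-10) and SREBF1 by 0.40 (SE 0.0575, adjusted p = 1.84e-07). SCAP fell by 0.25 (SE 0.0581, adjusted p = 0.000304) and was -0.10 (adjusted p = 0.106) by library size only, and STARD4 had a log2 fold change of -0.04 (SE 0.111, adjusted p = 0.758).

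TM7SF2 was the exception again, with a rise of 1.05 (SE 0.0612, adjusted p = 2.77e-17). MVD, at 30.5, 23.3 and 30.5 CPM in EZH2i, had 0.22 (SE 0.103, adjusted p = 0.0659), and SC5D had 0.08 (SE 0.0672, adjusted p = 0.331). Neither passed the test, but by library size only MVD was 0.36 (adjusted p = 0.0026) and SC5D 0.22 (adjusted p = 0.00481), MVD was 0.33 (adjusted p = 0.00606) without EZH2i library B, and LSS, called lower at -0.22 (SE 0.0677, adjusted p = 0.00448), was -0.08 (adjusted p = 0.321) by library size only. PMVK, ACSS2, ACACA, STARD4, MVD and SC5D overlapped with DMSO, and EZH2i libraries lay below all DMSO libraries for 25 genes. This separation was not counted over all tested genes. Without EZH2i library A, PMVK was -0.21 (adjusted p = 0.018).

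The combination was then compared with each single agent. Against AKTi, 30 of the 32 genes fell, against 32.1% of all tested genes, and 2 rose, also against 32.1%, with no gene left uncalled. The libraries of the 2 arms did not overlap for any of the 32, which was not counted over all tested genes. The median log2 fold change was -1.14, beside 0.04 for all tested genes. FADS1 at -2.14, EBP at -2.00 and INSIG1 at -1.81 were lowest (SE 0.0640, 0.0785 and 0.0630, adjusted p = 5.24e-26, 1.78e-22 and 5.21e-24). SREBF2 fell by 1.35 (SE 0.0558, adjusted p = 8.14e-22), more than SREBF1, which fell by 1.08 (SE 0.0588, adjusted p = 2.94e-18), a difference that was not tested. SC5D rose by 0.55 (SE 0.0682, adjusted p = 8.33e-09) and TM7SF2 by 0.33 (SE 0.0583, adjusted p = 8.11e-06). ACSS2, called lower at -0.21 (SE 0.0763, adjusted p = 0.0186), was -0.07 (adjusted p = 0.451) by library size only, -0.14 (adjusted p = 0.101) with genes kept at 10 or more counts in every library, -0.18 (adjusted p = 0.0798) without AKTi library C and -0.19 (adjusted p = 0.0566) without combination library C.

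Against EZH2i, the combination lowered 25 of the 32 genes, against 25.7% of all tested genes, and raised 2, against 21.1%. The median log2 fold change was -0.70, beside -0.01 for all tested genes. STARD4 was lowest at -1.93 (SE 0.127, adjusted p = 2.09e-15), followed by FADS2 at -1.75 (SE 0.0548, adjusted p = 8.79e-25) and EBP at -1.52 (SE 0.0790, adjusted p = 2.33e-18). CYP51A1, HSD17B7, ACSS2, ACACA and SCAP did not pass the test, with log2 fold changes between -0.18 for CYP51A1 and -0.02 for HSD17B7. The SE of CYP51A1 was 0.137 (adjusted p = 0.288), so the direction of its change is not settled. TM7SF2 rose by 0.56 (SE 0.0583, adjusted p = 3.39e-10).

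A few calls of this comparison changed when 1 library was left out, or with the scaling or filter. SC5D rose by 0.18 (SE 0.0663, adjusted p = 0.0275), but was 0.14 (adjusted p = 0.0813) without AKTi library A, 0.12 (adjusted p = 0.174) without EZH2i library A, 0.15 (adjusted p = 0.107) without EZH2i library C, 0.12 (adjusted p = 0.182) without combination library C and 0.15 (adjusted p = 0.115) with genes kept at 1 or more counts in total. PMVK, called lower at -0.23 (adjusted p = 0.0169), was -0.16 (adjusted p = 0.0868) without EZH2i library A, -0.20 (adjusted p = 0.0705) without EZH2i library C and -0.17 (adjusted p = 0.113) without combination library C, and -0.17 (adjusted p = 0.0647) by library size only. NSDHL, called lower at -0.37 (adjusted p = 0.00153), was -0.25 (adjusted p = 0.0529) without EZH2i library C. ACACA was called lower without AKTi library A (-0.14, adjusted p = 0.036) or EZH2i library A (-0.20, adjusted p = 0.00339).

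The interaction asks whether the effect of AKTi differed with and without EZH2i, as the log2 fold change of the combination against EZH2i less that of AKTi against DMSO. It was called below 0 (adjusted p under 0.05) for 25 of the 32 genes, against 17.5% of all tested genes, and called above 0 for 1, SC5D, against 10.7%. Called or not, 29 of the 32 estimates were below 0, beside 9073 of the 16646 tested genes. The median was -0.51, beside -0.05 for all tested genes, and was -0.43 in the sterol branch and -0.52 in the fatty acid branch. INSIG1 had the lowest interaction at -1.27 (SE 0.0853, adjusted p = 2.33e-14). It fell by 0.18 with AKTi alone and by 1.45 when AKTi was added to EZH2i. STARD4 followed at -1.14 (SE 0.174, adjusted p = 2.98e-06) and FADS2 at -1.01 (SE 0.0753, adjusted p = 3.92e-13). SC5D had 0.47 (SE 0.0957, adjusted p = 0.000228), falling by 0.29 with AKTi alone and rising by 0.18 on top of EZH2i.

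Among genes called, the interactions closest to 0 from below were SCAP at -0.27 (SE 0.0822, adjusted p = 0.0127) and ACAT2 at -0.36 (SE 0.116, adjusted p = 0.0163). SCAP was -0.21 (adjusted p = 0.0962) without AKTi library B and -0.24 (adjusted p = 0.0549) without AKTi library C, and ACAT2 was -0.32 (adjusted p = 0.0592) without DMSO library B and -0.29 (adjusted p = 0.0901) without AKTi library B. MVK, called at -0.42 (adjusted p = 0.0139), was -0.35 (adjusted p = 0.0505) without combination library B. FDPS, at -0.30 (adjusted p = 0.0514), passed the test without DMSO library C (-0.34, adjusted p = 0.0353), AKTi library A (-0.36, adjusted p = 0.0284), EZH2i library A (-0.42, adjusted p = 0.00358) or combination library B (-0.40, adjusted p = 0.0131). The interactions of NSDHL, ACSS2, ACSL3, CYP51A1 and HSD17B7 lay between -0.18 and 0.16 and did not pass the test.

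The effect of AKTi could be read separately in cells without and with EZH2i, from different libraries. It was lower in both for 17 genes and higher in both for TM7SF2. For 4 genes, SREBF2, LSS, MVD and PMVK, AKTi raised the level without EZH2i and lowered it with EZH2i, from 0.40 to -0.43 for SREBF2, 0.27 to -0.57 for LSS, 0.36 to -0.38 for MVD and 0.21 to -0.23 for PMVK. Their interactions were -0.83 (adjusted p = 1.48e-10), -0.84 (adjusted p = 1.42e-08), -0.74 (adjusted p = 0.000158) and -0.43 (adjusted p = 0.0026). SC5D alone turned the other way, and for the other 9 genes at least 1 of the 2 effects did not pass the test. Of all tested genes, AKTi lowered 21.9% and raised 20.6% without EZH2i, and lowered 25.7% and raised 21.1% with EZH2i. The share of all tested genes that showed each pattern over both settings was not counted, so whether these patterns are particular to this set was not tested. Not all of the turns in direction held in every alternative. PMVK lost each of its 2 calls in 5 of 19 alternatives, and MVD and LSS each lost the rise with AKTi alone in 1. SC5D lost its rise on top of EZH2i in 5, while SREBF2 lost neither call.

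**Figure D4:**
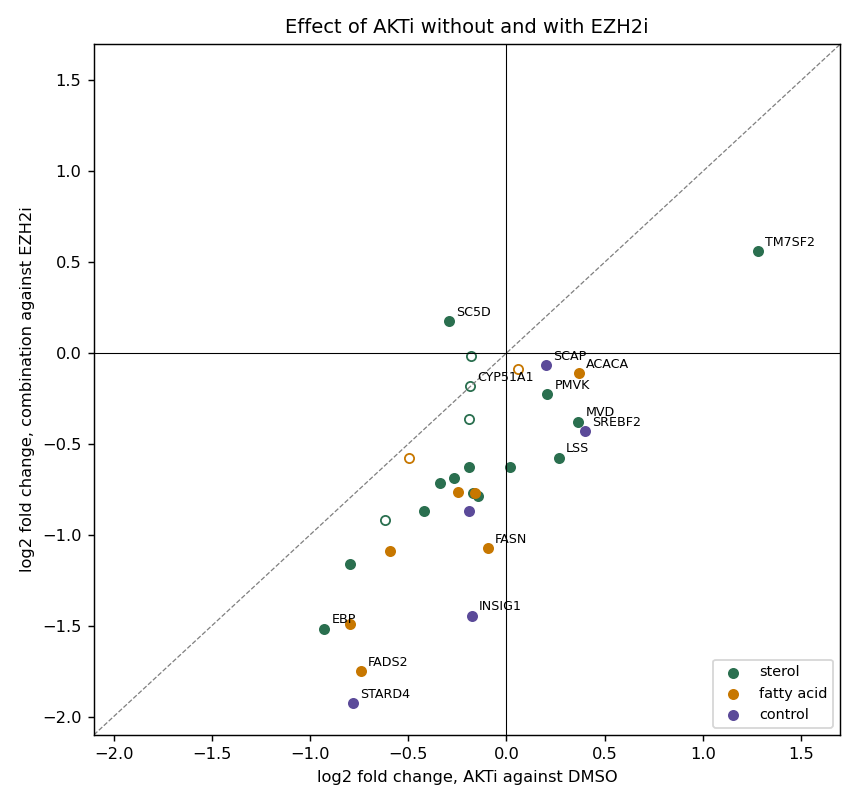
Log2 fold change of AKTi against DMSO (x axis) and of the combination against EZH2i (y axis) for the 32 genes, colored by branch, with filled points where the interaction had an adjusted p under 0.05 and a dashed line where both effects are equal. Most points lie below the line, and SREBF2, LSS, MVD and PMVK lie to the right of 0 and below it.

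The sterol and fatty acid branches moved in the same order of arms. The mean log2 CPM over the 18 sterol genes, relative to DMSO, was -0.143 ± 0.00969 with AKTi, -0.540 ± 0.0449 with EZH2i and -1.08 ± 0.0310 with both agents (SD, n = 3). Over the 9 fatty acid genes it was -0.299 ± 0.0408, -0.619 ± 0.0696 and -1.47 ± 0.0534, and over the 5 control and transport genes -0.110 ± 0.0371, -0.351 ± 0.0443 and -1.30 ± 0.0101. The sterol and fatty acid levels did not overlap in AKTi or in the combination, where the fatty acid level was lower, and overlapped in EZH2i. With the median over genes in place of the mean, this held in the combination alone. The AKTi levels then overlapped, from -0.257 to -0.158 for sterol and -0.278 to -0.198 for fatty acid genes, and in EZH2i the sterol level was the lower one without overlap, from -0.638 to -0.569 against -0.559 to -0.52. No p-value is given for these levels, because the genes were chosen with results of these data known.

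**Figure D5:**
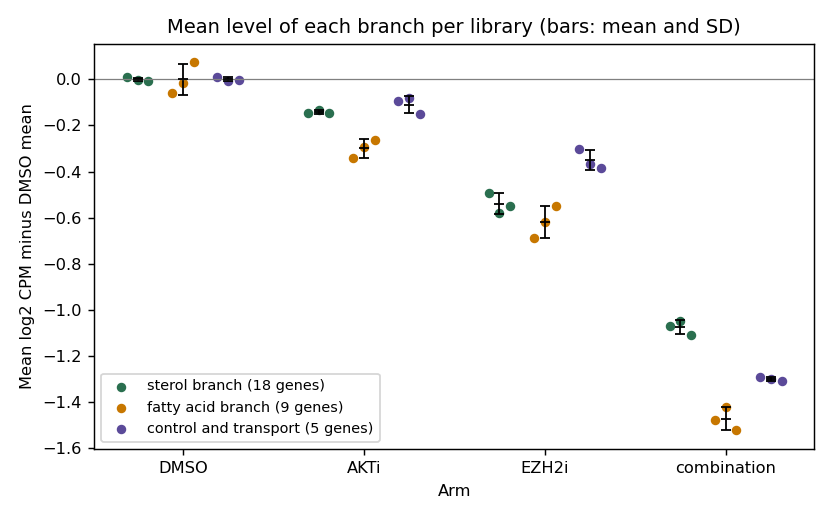
Mean log2 CPM relative to the DMSO mean (y axis) of the sterol, fatty acid and control and transport genes in each library of the 4 arms (x axis), with black bars for the mean and SD of 3 libraries. In the combination the sterol genes sit between -1.11 and -1.05 and the fatty acid genes between -1.52 and -1.42.

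Genes next to these pathways were counted from lists of related functions. Of 9 genes that process SREBP or carry out the turnover of its partners, 3 fell (35.2% of all tested genes) and 4 rose (38.0%) in the combination, numbers close to those shares, with a median log2 fold change of 0.13. The lowest were UBE2G2, a ubiquitin-conjugating enzyme of the endoplasmic reticulum, at -0.90 (adjusted p = 3.93e-16) and ERLIN1 at -0.85 (adjusted p = 1.49e-11). The highest was INSIG2, the paralog of INSIG1, at 1.31 (SE 0.0882, adjusted p = 5.96e-16), with 17.8, 19.1 and 16.9 CPM in DMSO and 47.1, 43.2 and 42.5 in the combination, next to ERLIN2 at 0.53 (adjusted p = 4.96e-11). INSIG2 thus moved opposite to INSIG1 in these libraries.

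Of 8 genes of cholesterol export and response to the sterol receptor LXR, 7 rose in the combination (38.0% of all tested genes) and none fell (35.2%), with a median of 0.94, and 6 rose with EZH2i alone (32.6% of all tested genes), with a median of 0.66. ABCA1, the cholesterol exporter, was at 0.874, 0.516 and 1.10 CPM in DMSO, 5.01, 5.25 and 5.32 in EZH2i and 11.79, 12.03 and 12.24 in the combination, a rise of 3.79 (SE 0.248, adjusted p = 2.74e-16). ABCG1, a second exporter, rose by 2.38 (adjusted p = 5.27e-20), and the smallest rises were LPCAT3 at 0.75 (adjusted p = 2.88e-12) and MYLIP at 0.86 (adjusted p = 3.08e-11). With AKTi alone 3 of the 8 rose (20.6% of all tested genes) and 1 fell (21.9%), with a median of 0.21.

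Of 25 further genes of fatty acid synthesis and activation, 21 were tested, 11 fell (35.2% of all tested genes) and 6 rose (38.0%) in the combination, with a median of -0.39. THRSP at -1.80 (adjusted p = 0.00641) and ME1, which supplies NADPH, at -1.60 (adjusted p = 2.24e-24) were lowest, and ELOVL4 at 2.68 (adjusted p = 7.58e-10) and ACSL4 at 2.34 (adjusted p = 4.11e-15) were highest. THRSP rests on few reads, at 0.479 to 1.33 CPM in DMSO and 0.173 to 0.301 in the combination. In DMSO, ELOVL4 was at 0.431 to 1.105 CPM, ACSL4 at a mean of 2.39 and ME1 at a mean of 219. Of 16 genes of fatty acid oxidation, 10 fell and 6 rose, against the same shares of 35.2% and 38.0%, with a median of -0.39. ECHS1 at -1.24 (adjusted p = 4.06e-22) and ETFA at -1.04 (adjusted p = 2.12e-18) were lowest, and ACAA2, a mitochondrial thiolase, at 3.12 (adjusted p = 4.56e-21) and DECR1 at 0.71 (adjusted p = 1.16e-09) were highest. ACAA2 was low in DMSO, at a mean of 3.67 CPM. Both lists had genes called in both directions, and the number of oxidation genes that rose was close to the share of all tested genes. None of the 9 fatty acid branch genes was called higher, but ACACA turned to 0.05 (not called) by library size only. The difference between the lists was not tested.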

How the data were processed

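For 12 polyA libraries of C4.2B cells, the authors used STAR for alignment (hg38) and HTSeq for counting reads per gene, and deposited the raw counts per gene (58735 genes), which were used here. Versions, gene annotation and strand setting are not given in the sources used here, so counts of overlapping genes such as SREBF1 and RAI1, or STARD4 and STARD4-AS1, may be mixed. The authors' table of DESeq2-normalized values was not used. The table also holds gene lengths, used for levels per kilobase.

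Arms were taken from the sample titles. In R 4.3.3, genes were kept by edgeR 4.0.16 filterByExpr (minimum count 10, total 15), libraries were scaled by TMM, and edgeR's quasi-likelihood test used a model of 4 arm means on the 12 libraries together, with Benjamini-Hochberg adjustment over 16646 genes at 0.05. The study used DESeq2 at the same threshold, which is an alternative here (DESeq2 1.42.0). A standard error is the absolute log2 fold change divided by the square root of the F statistic. Totals were 14133755 to 22276417 counts per library, and the lowest count of any of the 32 genes in a library was 93 (ELOVL6). The paper names 2 sequencing sources without assigning libraries, so no such batch could be modelled.

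The 32 genes and the related lists were chosen with earlier results of these data known. Genes given in full are those with the 5 lowest and 5 highest log2 fold changes in the combination, the 3 lowest and highest for each single agent and among called interactions, the 5 control and transport genes, and every gene called opposite to the median of its branch. Of a related list, the 2 lowest and 2 highest called genes are named. Branch levels are means of log2 CPM (prior count 2). Promoters are from RefSeq (GRCh38.p14), searched in Python 3.11.15. The test was checked on simulated counts.

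The alternatives were library size only and upper-quartile scaling, filters of at least 1 count in total and of 10 or more counts in each library, a fit to the compared libraries alone, the letter as a replicate block, DESeq2, each library left out in turn and, for branch levels, a prior count of 0.5 and the median over genes.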

Additional observations from a re-analysis of the deposited data

Results flagged for a closer look

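The effect of AKTi differed between cells without and with EZH2i for 26 of the 32 genes, by the interaction term of edgeR's quasi-likelihood test with Benjamini-Hochberg adjustment (the interaction was called below 0 for 17.5% of all tested genes and above 0 for 10.7%). For each of the genes below, the value is the log2 fold change of AKTi in EZH2i-treated cells minus that in cells without EZH2i.

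Among control and transport genes it was -1.27 for INSIG1, -1.14 for STARD4, -0.83 for SREBF2, -0.68 for SREBF1 and -0.27 for SCAP. In the mevalonate part it was -0.74 for MVD, -0.65 for HMGCS1, -0.45 for IDI1, -0.43 for PMVK, -0.42 for MVK and -0.36 for ACAT2. From squalene to cholesterol it was -0.84 for LSS, -0.72 for TM7SF2, -0.64 for DHCR7, -0.60 for FDFT1, -0.59 for EBP, -0.44 for SQLE, -0.38 for MSMO1 and 0.47 for SC5D. Among fatty acid genes it was -1.01 for FADS2, -0.98 for FASN, -0.69 for ELOVL6, -0.61 for ACLY, -0.52 for SCD, -0.50 for FADS1 and -0.48 for ACACA.

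TM7SF2 rose with AKTi in both settings, and its negative value means a smaller rise with EZH2i, by 0.56 against 1.28 on the log2 scale. ACACA rose by 0.37 with AKTi alone and had -0.11 (not called) with EZH2i. TCP1, which overlaps ACAT2, had an interaction of -0.00336 (adjusted p = 0.982).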

How the results depend on the processing

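Scaling moved both sizes and calls, and 12 genes instead of 18 were called lower with AKTi under both scalings. By library size only and by upper quartile, the all-gene median for the combination was 0.26 and 0.25 instead of 0.06, and the share of calls that were lower was 38.5% and 39.1% instead of 48.1% (for AKTi 42.4% and 42.5% instead of 51.5%, for EZH2i 38.7% and 40.6% instead of 49.2%, against AKTi 39.8% and 40.6% instead of 50%). The median log2 fold change of the 32 genes became -0.13 and -0.13 for AKTi, -0.38 and -0.41 for EZH2i, -1.11 and -1.13 for the combination, -1.00 and -1.01 against AKTi, and -0.65 and -0.64 against EZH2i. In the sterol branch it became -0.13 and -0.13, -0.43 and -0.46, -1.07 and -1.08, -0.96 and -0.97, and -0.57 and -0.56, and in the fatty acid branch -0.39 and -0.41 for EZH2i, -1.35 and -1.36 for the combination, and -1.17 and -1.18 against AKTi. With EZH2i, 3 genes, all sterol, were called higher under both scalings. ACACA in the combination turned to 0.0472 and 0.0349 (adjusted p = 0.449 and 0.568).

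With at least 10 counts in every library, EZH2i had 2 genes called higher, both sterol, and a sterol median of -0.54. The combination had medians of -1.24 (all) and -1.20 (sterol), against AKTi -1.07 and -1.03, against EZH2i -0.59 (sterol), and the sterol interaction -0.40. With at least 1 count in total, the sterol median of the combination was -1.30 and 1 gene, of the sterol branch, was called higher against EZH2i. Sterol branch levels were -0.083, -0.395 and -0.879 in AKTi, EZH2i and the combination by library size only and -0.201, -0.613 and -1.24 as medians over genes, and fatty acid levels -0.240, -0.475 and -1.28 and -0.245, -0.542 and -1.55. The causes were not tested.

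With each library left out in turn, the counts of genes called higher ranged from 2 to 4 (sterol, AKTi), 1 to 2 (all and sterol, EZH2i) and 1 to 2 (all and sterol, combination against EZH2i). Medians over all 32 genes ranged from -0.58 to -0.51 for EZH2i, -1.40 to -1.28 for the combination, -1.19 to -1.13 against AKTi and -0.58 to -0.46 for the interaction. Sterol medians ranged from -0.22 to -0.18, -0.64 to -0.58, -1.33 to -1.22, -1.17 to -1.09, -0.68 to -0.58 and -0.47 to -0.38 for AKTi, EZH2i, the combination, against AKTi, against EZH2i and the interaction.

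The letters A to C gave no sign of pairing between arms, but 3 libraries per arm are too few to exclude it. Deviations from the arm means correlated between -0.058 and 0.069 for same-letter pairs, and a library correlated best with its own letter in 8 of 36 cases. With the letter as a replicate block, 28 genes were called lower and 2 higher in the combination, and no call among the 32 genes changed. DESeq2 called 28 lower and 2 higher in the combination, and changed 1 call, PMVK in AKTi (0.20, adjusted p = 0.0563). Over all genes, comparisons and alternatives, 3526 single-gene results kept their side of the threshold, of which 3491 also kept their sign and 35, all uncalled, turned it. These 35 belong to 12 pairs of gene and comparison, among them ACSS2 and MVD in the combination, which turned to 0.05 and 0.03 at most. A call was lost in 58 results and gained in 30, and 2 called values reversed. The interaction was not run on the compared libraries only, since it needs all 12. Depth limits mainly ELOVL6, STARD4 and CYP51A1, the genes of lowest counts.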
